A study of Arabidopsis thaliana with 12 samples.

Results

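The 10 genes described here encode the enzymes of jasmonate synthesis that act after lipoxygenase. They were taken by AGI locus from the 33602 genes of the deposited tables, and all 10 were among the 20888 genes that passed the filter on low counts. They are AOS (AT5G42650), AOC1 (AT3G25760), AOC2 (AT3G25770), AOC3 (AT3G25780), AOC4 (AT1G13280), OPR3 (AT2G06050), OPCL1 (AT1G20510), ACX1 (AT4G16760), ACX5 (AT2G35690) and JAR1 (AT2G46370).

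Jasmonate is made from linolenic acid of chloroplast membranes. A lipoxygenase oxygenates the fatty acid, allene oxide synthase (AOS) turns the hydroperoxide into an unstable allene oxide, and allene oxide cyclase (AOC) closes the ring to give 12-oxo-phytodienoic acid (OPDA). In the peroxisome OPDA reductase 3 (OPR3) reduces the ring, OPCL1 joins the product to coenzyme A, and acyl-CoA oxidases such as ACX1 and ACX5 open the rounds of beta-oxidation that shorten the side chain. JAR1 then conjugates jasmonic acid with isoleucine in the cytosol. Jasmonoyl-isoleucine causes the breakdown of JAZ proteins, which otherwise hold back MYC transcription factors, and genes of jasmonate synthesis are known to be activated by jasmonate itself.

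RNA was sequenced from whole Arabidopsis thaliana seedlings, roots included, at 8 d after sowing on sucrose medium in continuous light, with no jasmonate applied. All plants were of ecotype Col-0. The groups were wild-type Col-0, jazQ (insertion mutations in 5 genes, with alleles jaz1-2, jaz3-4, jaz4-1, jaz9-4 and jaz10-1), mycT (insertions in 3 genes, with alleles jin1-7 in MYC2, myc3-1 and myc4-1) and jazQ mycT, which carries all 8. Each genotype had 3 libraries, each from a pool of about 200 seedlings grown on plates shared by wild type and mutants. The Col-0 and jazQ libraries came from an earlier study by the same group, which the methods describe as grown and processed in parallel. The other JAZ genes were not mutated in jazQ, and bulk RNA from whole plants cannot tell fewer expressing cells from less RNA per cell.

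The genes lie on all 5 chromosomes of the TAIR10.1 assembly (RefSeq annotation). AOC1, AOC2 and AOC3 are neighbours on chromosome 3, on the plus strand at chr3:9403779-9405338, chr3:9406669-9408071 and chr3:9409160-9411090, and AOC4 stands apart at chr1:4547388-4548894 on the plus strand. AOS is a single-exon gene on the minus strand at chr5:17097564-17099595. OPR3 (chr2:2359114-2362375), OPCL1 (chr1:7103362-7106121) and ACX1 (chr4:9424534-9428895) are also on the minus strand, and ACX5 (chr2:14999726-15003073) and JAR1 (chr2:19033586-19036683) on the plus strand. No other gene annotated in TAIR10.1 overlaps any of the 10, while the counts rest on the earlier TAIR10 models and the strand of the libraries is unknown here, so reads of antisense or close neighbours were not tested for. The proteins of AOC1 and AOC2 share 89.3% of aligned residues, AOC1 and AOC4 share 63.6%, and ACX1 and ACX5, both of 664 residues, share 86%. At the level of 50-base reads the transcripts are largely distinct. Of the 50-base stretches in AOC1, 2.1% also occur in another transcript (AOC3), for AOC3 it is 1.55%, for AOC2 0.0799%, and for the other 7 genes 0.

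The 250 bases before the annotated start of several of these genes are shown because MYC transcription factors bind short E-box sequences. The letters searched, on both strands, were CACGTG (known as the G-box), the variant CACATG, the variant CACGTT, and a further variant with the letters CACGAG. AOS and ACX1 have a CACGTG, in capitals, 6 and 92 bases before the start. OPR3 has none of these 4 letter sets in its window and is shown without capitals. Its change in jazQ was the largest estimate among the 10 (log2 1.08), within the 95% confidence interval of AOS (0.57 to 1.38). AOC1 and AOC2, neighbours that were both called lower, like OPR3, in jazQ mycT than in jazQ, share a run of 19 identical bases, in capitals. The windows are chr5:17099596-17099845 (minus strand), chr4:9428896-9429145 (minus), chr2:2362376-2362625 (minus), chr3:9403529-9403778 (plus) and chr3:9406419-9406668 (plus), all 5′ to 3′ from RefSeq TAIR10.1.
AOS: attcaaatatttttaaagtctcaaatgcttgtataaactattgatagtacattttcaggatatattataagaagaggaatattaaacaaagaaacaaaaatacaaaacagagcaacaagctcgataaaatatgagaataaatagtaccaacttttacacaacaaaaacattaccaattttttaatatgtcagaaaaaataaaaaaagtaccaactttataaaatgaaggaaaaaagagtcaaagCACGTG
ACX1: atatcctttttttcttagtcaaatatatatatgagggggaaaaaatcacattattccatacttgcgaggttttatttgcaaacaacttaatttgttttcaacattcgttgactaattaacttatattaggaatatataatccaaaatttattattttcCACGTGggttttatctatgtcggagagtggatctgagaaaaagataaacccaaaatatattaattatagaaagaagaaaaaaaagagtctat
OPR3: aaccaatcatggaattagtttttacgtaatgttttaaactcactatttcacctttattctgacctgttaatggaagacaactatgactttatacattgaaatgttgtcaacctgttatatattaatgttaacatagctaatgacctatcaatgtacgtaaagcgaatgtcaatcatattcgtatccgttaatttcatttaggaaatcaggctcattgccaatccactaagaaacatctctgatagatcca
AOC1: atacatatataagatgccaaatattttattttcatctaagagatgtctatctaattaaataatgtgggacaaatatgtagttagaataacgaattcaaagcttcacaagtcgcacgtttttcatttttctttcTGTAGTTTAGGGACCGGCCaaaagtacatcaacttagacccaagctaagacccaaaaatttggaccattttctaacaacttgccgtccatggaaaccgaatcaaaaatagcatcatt
AOC2: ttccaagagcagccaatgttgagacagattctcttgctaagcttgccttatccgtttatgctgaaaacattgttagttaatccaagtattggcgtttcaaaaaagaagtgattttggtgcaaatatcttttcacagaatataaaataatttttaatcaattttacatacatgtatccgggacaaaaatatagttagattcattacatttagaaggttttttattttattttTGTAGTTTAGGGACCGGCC

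In a window of 300 bases (250 before and 50 after the start), CACGTG was present in 2 of the 10 genes and in 7.68% of 27443 protein-coding genes. The CACATG letters were present in AOC4 and JAR1 (12.9% of all genes), CACGTT in AOC1 and AOC2 (8.95%) and CACGAG in AOC3 and ACX5 (5.18%). In the 1000 bases before the start, CACGTG was found upstream of AOS, ACX1 and ACX5, against 14.8% of all genes. OPR3 had a single match there, a CACGTT 773 bases before the start. The windows of AOC4 and OPCL1 are of less use, since 236 and 244 of their 250 upstream bases lie in a neighbouring gene model. The run shared by AOC1 and AOC2 begins 117 bases before the start of AOC1 and 19 bases before that of AOC2, and among all genes only these 2 windows contain it. The longest shared run of the other pairs of members was 11 bases, with a median of 8 over all 45 pairs.

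The 12 libraries held between 12336090 and 26347184 counts, and the 10 genes together took 0.0422% to 0.0955% of them. Ribosomal RNA took 0.741% to 2.12% of counts except in mycT replicate 1 (5.12%) and jazQ mycT replicate 1 (10.96%). Of the mutated genes, JAZ1 and JAZ4 were lower in all jazQ and jazQ mycT libraries than in any other. JAZ3 and JAZ10 were higher in them, and JAZ9 and MYC3 were not called in any mutant relative to Col-0. MYC4 was called higher in jazQ mycT, by 1.43-fold relative to Col-0 (adjusted p = 0.00748) and by 1.56-fold relative to jazQ (adjusted p = 0.00265), and was not called in mycT. MYC2 fell in mycT (16.76 ± 3.09 TPM against 26.03 ± 2.73, SD, n = 3) but overlapped Col-0 in jazQ mycT (22.85 ± 0.914). Counts over a whole gene model do not show an insertion, so these levels check the jazQ label through JAZ1 and JAZ4. They check the mycT label through MYC2. For the jazQ mycT label the MYC genes gave only a weak check. MYC2 was at 22.08 to 23.86 TPM there, below all jazQ libraries (30.73 to 39.31), but did not pass the test (0.717-fold, adjusted p = 0.0519). All 16 root and 15 shoot markers were above 0 in some library, with sums of 106.6 to 143.1 and 36588 to 51985 TPM. A mean of at least 1 TPM was reached by 12 of the root markers and all 15 shoot markers. Of the tested markers, 1 of 15 root markers (CASP5, lower) and none of 15 shoot markers were called in jazQ, and 4 shoot markers were called higher in mycT. Of all 20888 tested genes, 365 were called higher and 232 lower in jazQ, and 200 higher in mycT. In jazQ mycT, CASP5 was called lower and the shoot marker RCA higher relative to Col-0, the root markers ESB1 and CASP1 were called lower relative to mycT, and no root or shoot marker was called relative to jazQ. The part of tissue composition in the results below was not tested.

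Loss of the 5 JAZ genes raised transcripts of the first steps of the pathway. Of the 10 genes, 6 were called higher and none lower in jazQ than in Col-0 at an edgeR adjusted p under 0.05, against 1.75% of all tested genes called higher. The 6 were AOS, AOC1, AOC2, AOC4, OPR3 and ACX1. The median log2 fold change of the 10 was 0.51, and that of all tested genes was −0.0069. The summed level of the 10 was 549.1 ± 60.8 TPM in Col-0 and 844.8 ± 118 in jazQ (SD, n = 3). With MYC mutated it was 390.3 ± 31.1 TPM in mycT and 503.6 ± 15.9 in jazQ mycT. The sum weighs abundant transcripts most, and mean AOC2 was 233.3 TPM in Col-0 and 169.9 in jazQ mycT. By counts as normalized by edgeR, 8 of the 10 genes were estimated higher in jazQ mycT than in Col-0. The median log2 estimate of the 10 was 0.22, and that of all tested genes was −0.0039. The estimates of AOC2 (−0.35) and JAR1 (−0.17) were negative, and neither was called.

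Loss of the 3 MYC genes lowered part of the pathway. Relative to Col-0, mycT had only AOC2 called lower, against 0.847% of all genes. Relative to jazQ, jazQ mycT had 3 genes called lower (AOC1, AOC2 and OPR3), against 0.876% of all genes, and none called higher. Loss of JAZ still raised transcripts where MYC was mutated. In jazQ mycT relative to mycT, 5 of 10 genes were called higher (AOC1 to AOC4 and OPR3), against 4.05% of all genes. The comparison of jazQ with Col-0 and that of jazQ mycT with mycT share no library. Relative to Col-0, jazQ mycT had only AOC4 called higher, against 2.81% of all genes.

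How firm these calls are differed by gene. Over the 22 alternative fits, OPR3, AOC1 and AOC4 were called higher in jazQ in every fit, AOC1, AOC2 and OPR3 were called lower in jazQ mycT than in jazQ in every fit, and AOC4 and OPR3 were called higher in jazQ mycT than in mycT in every fit. Without jazQ replicate 2, in which AOS, AOC1, AOC2 and OPR3 had their highest level of all libraries, 3 genes were called higher in jazQ, and AOS (adjusted p = 0.0589), AOC2 (0.0889) and ACX1 (0.0771) were not.

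**Figure D1:**
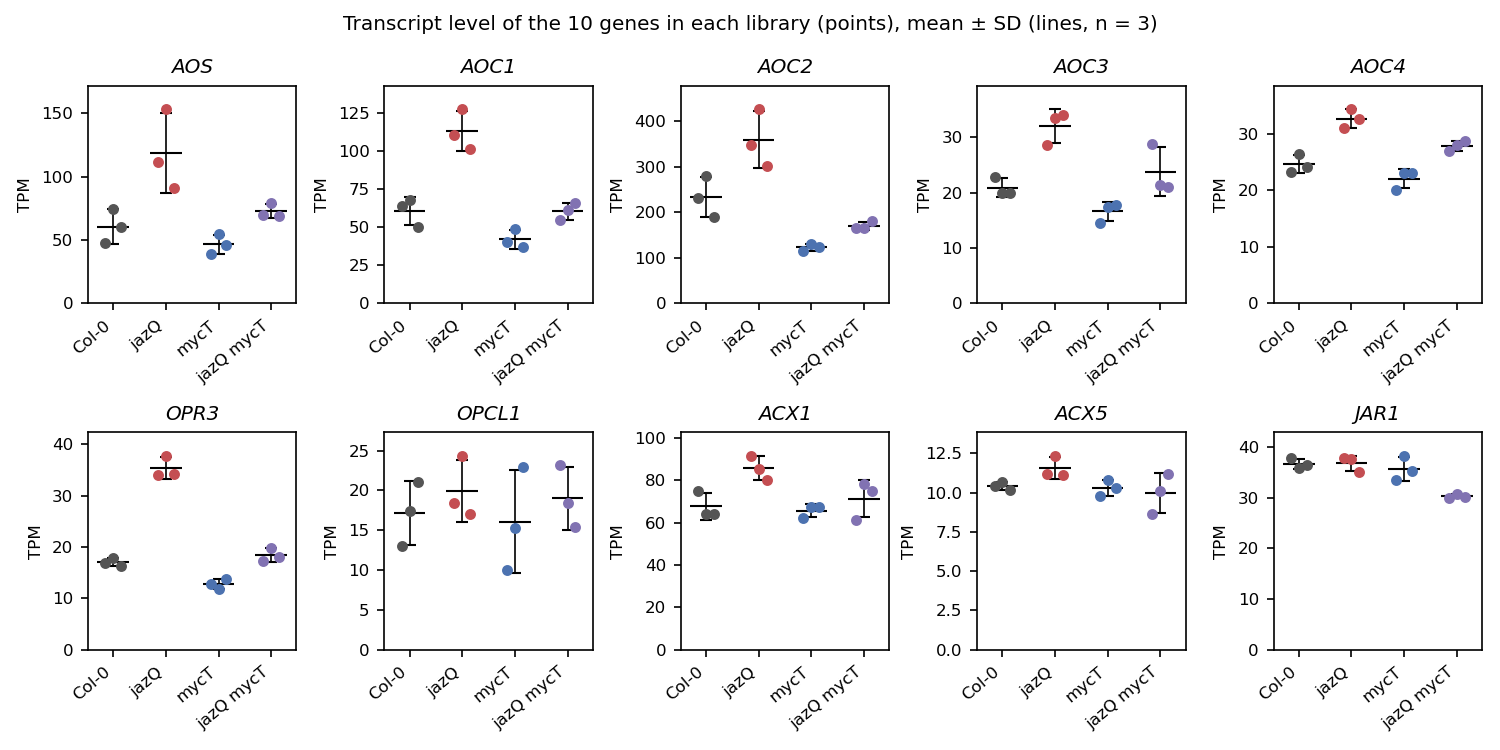
Transcript level (TPM, vertical axis from 0) of each gene in the 12 libraries, by genotype on the horizontal axis. Points are libraries, and lines give the mean and SD (n = 3). The 3 jazQ libraries lie above all others for AOS, AOC1, AOC2 and OPR3, whereas JAR1 is lowest in jazQ mycT, at 30.02 to 30.72 TPM.

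AOS makes the first committed intermediate of the branch. Its level in the 3 libraries was 47.29, 74.37 and 59.95 TPM in Col-0, 111.73, 153.14 and 91.03 in jazQ, 39.16, 54.37 and 45.9 in mycT, and 70.02, 78.77 and 69.06 in jazQ mycT. Each jazQ library was above every other library, and mycT overlapped Col-0. The transcript was 1.96-fold higher in jazQ than in Col-0 (log2 fold change 0.97 ± 0.19 SE, adjusted p = 0.0159). In jazQ mycT it was 1.58-fold the mycT level (log2 0.66 ± 0.19, adjusted p = 0.0511) and, on the log2 scale, −0.60 ± 0.18 from jazQ (adjusted p = 0.128), so neither change passed the test. Omitting Col-0 replicate 1 (adjusted p = 0.0702), like omitting jazQ replicate 2, ended the call in jazQ, as did limma without a filter (0.0609). The rise in jazQ mycT over mycT was called with DESeq2, with its size factors in edgeR, without the count filter, with the genotypes compared alone, with a replicate block, without ribosomal and organelle genes, and in 4 of the 12 fits with a library left out (adjusted p from 0.00814 to 0.0498). The difference from jazQ was called without jazQ replicate 3 (0.0398).

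AOC2 was the most abundant of the 10 transcripts per length. Allene oxide cyclase sets the stereochemistry of OPDA and so of jasmonate. AOC2 stood at 231, 278.83 and 190.08 TPM in Col-0, at 348.11, 426.44 and 302.55 in jazQ, at 113.81, 130.11 and 124.06 in mycT, and at 164.65, 165.17 and 179.82 in jazQ mycT. The 4 genotypes did not overlap, in the order jazQ, Col-0, jazQ mycT, mycT. The fall in mycT was 1.78-fold (log2 −0.83 ± 0.13, adjusted p = 0.00967), and the fall from jazQ to jazQ mycT was 1.97-fold (log2 −0.98 ± 0.13, adjusted p = 0.00118). The rise was 1.54-fold from Col-0 to jazQ (adjusted p = 0.0244) and 1.4-fold from mycT to jazQ mycT (adjusted p = 0.0423). The last call was lost when any library of mycT or jazQ mycT, Col-0 replicate 1 or jazQ replicate 1 was left out (highest adjusted p = 0.116), and leaving out Col-0 replicate 1 (adjusted p = 0.0982) or jazQ replicate 1 (0.057) ended the call in jazQ. That call was also lost with the genotypes compared alone (0.0771) and with limma without a filter (0.0881), and the rise in jazQ mycT over mycT with limma (0.0773 to 0.143). The difference between jazQ mycT and Col-0, neighbours in the order, did not pass the test (log2 −0.35, adjusted p = 0.145).

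AOC1, the neighbour of AOC2 with the shared upstream run, stood at 63.73, 68.17 and 50.26 TPM in Col-0 and at 110.74, 127.53 and 101.28 in jazQ. It was at 40.39, 48.8 and 36.74 in mycT and at 54.47, 61.01 and 65.79 in jazQ mycT. The jazQ libraries were above all others, the mycT libraries were below all others, and Col-0 and jazQ mycT overlapped. AOC1 was 1.86-fold higher in jazQ (log2 0.90 ± 0.11, adjusted p = 0.000734) and 1.75-fold lower in jazQ mycT than in jazQ (log2 −0.81 ± 0.11, adjusted p = 0.00145). In mycT relative to Col-0 the log2 fold change was −0.43 ± 0.11 (adjusted p = 0.0753), and it was −0.44 (adjusted p = 0.0359) in a fit with the replicate number as a block. DESeq2 (0.0106) and the fit without Col-0 replicate 3 (0.0277) also called it. AOC1 was 1.44-fold higher in jazQ mycT than in mycT (adjusted p = 0.0151), a call lost without jazQ mycT replicate 3 (adjusted p = 0.0576) and with limma without a filter (0.0886).

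AOC3, the third gene of the cluster, had lower levels, at 19.94 to 22.84 TPM in Col-0, 28.54 to 34.06 in jazQ, 14.59 to 17.83 in mycT and 20.97 to 28.83 in jazQ mycT. Its log2 fold change in jazQ was 0.60 ± 0.15 (adjusted p = 0.0557), which did not pass the test. It passed with DESeq2 (adjusted p = 0.00957), without the count filter (0.0454), with the genotypes compared alone (0.0136), with limma after the filter (0.0288 and 0.0304) and without jazQ mycT replicate 1 (0.00289) or 3 (0.0445). It was 1.47-fold higher in jazQ mycT than in mycT (adjusted p = 0.0469). That value is close to the threshold and was not called in 10 of the 12 fits with a library left out, with the genotypes compared alone (0.099), with a replicate block (0.0613) or with limma without a filter (0.0878). Relative to jazQ, AOC3 was called lower in jazQ mycT without jazQ mycT replicate 1 (log2 −0.56, adjusted p = 0.0131).

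AOC4, on another chromosome, changed less but with little spread. It stood at 23.26, 26.34 and 24.14 TPM in Col-0, 30.98, 34.3 and 32.65 in jazQ, 20.11, 23.1 and 22.96 in mycT, and 26.92, 28.05 and 28.66 in jazQ mycT. Both genotypes with mutated JAZ genes lay above both with intact ones. AOC4 was 1.33-fold higher in jazQ than in Col-0 (log2 0.41 ± 0.069, adjusted p = 0.00735) and 1.28-fold higher in jazQ mycT than in mycT (log2 0.35 ± 0.069, adjusted p = 0.00938). The mycT mutations gave log2 fold changes of −0.064 (95% confidence interval −0.22 to 0.089) with JAZ intact and −0.12 (−0.27 to 0.027) in jazQ. AOC4 was 1.22-fold higher in jazQ mycT than in Col-0 (adjusted p = 0.0301), which was not called when Col-0 replicate 1 or any jazQ mycT library was omitted, with the genotypes compared alone (0.0645) or with limma (0.23 to 0.233).

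Since reads can be split among related genes, the counts of the 4 AOC genes were also summed. The sum rose in jazQ (log2 0.66 ± 0.11, adjusted p = 0.007), fell in mycT (−0.63 ± 0.11, adjusted p = 0.0178) and was lower in jazQ mycT than in jazQ (−0.81 ± 0.11, adjusted p = 0.00141), and rose in jazQ mycT relative to mycT (0.48 ± 0.11, adjusted p = 0.0202).

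AOC2 made up a smaller share of the AOC transcripts in the libraries with mutated MYC genes. The share of AOC2 in the summed TPM of AOC1 to AOC4 was 67.8%, 70.9% and 66.8% in Col-0, 67.2%, 68.6% and 64.3% in jazQ, 60.2%, 59.3% and 61.5% in mycT, and 59.9%, 59.9% and 60.9% in jazQ mycT. All 6 libraries with mutated MYC genes were below all 6 with intact ones. This ratio was chosen after its values were seen, so it is a description with no test. Averaged over both JAZ backgrounds, the share of AOC2 differed by −7.28 percentage points with MYC mutated, that of AOC4 by 3.63, that of AOC3 by 2.15 and that of AOC1 by 1.5. Shares are parts of a fixed whole, and the levels of AOC3 and AOC4 themselves were not higher with MYC mutated. The mean of AOC4 was 24.58 TPM in Col-0 and 22.06 in mycT, and 32.64 in jazQ and 27.88 in jazQ mycT. That of AOC3 was 20.92 TPM in Col-0 and 16.59 in mycT, and 32.03 in jazQ and 23.75 in jazQ mycT.

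**Figure D2:**
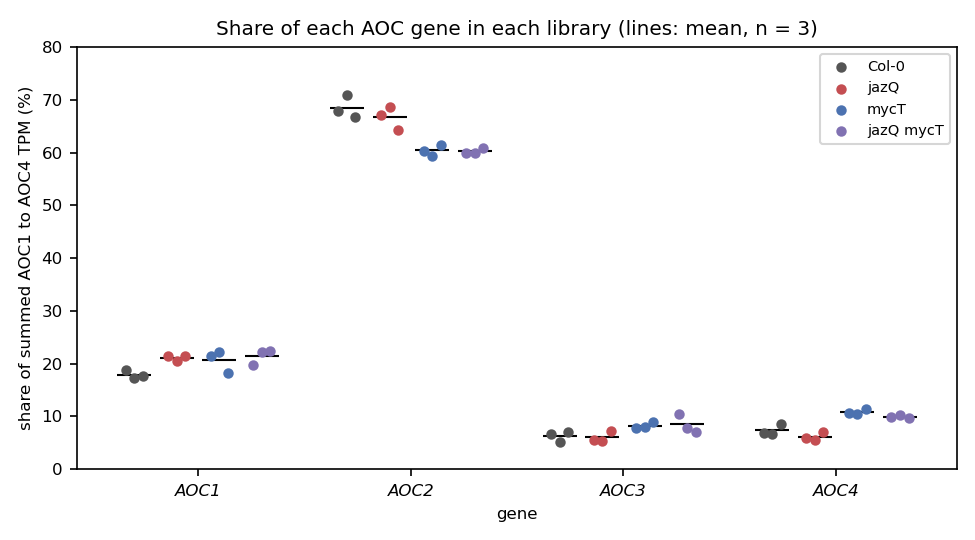
Share of each AOC gene in the summed TPM of AOC1 to AOC4 (vertical axis, percent, from 0) by gene and genotype. Points are libraries and lines are means (n = 3). The AOC2 share is at most 61.5% in mycT and jazQ mycT and at least 64.3% in Col-0 and jazQ.

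OPR3 encodes the peroxisomal reductase on which most jasmonate synthesis depends, and it had the largest estimated change in jazQ among the 10. It stood at 16.8, 17.95 and 16.37 TPM in Col-0, 34.04, 37.77 and 34.17 in jazQ, 12.82, 11.84 and 13.77 in mycT, and 17.32, 19.91 and 17.98 in jazQ mycT. The jazQ libraries were above all others and the mycT libraries below all others, and Col-0 and jazQ mycT overlapped. OPR3 was 2.11-fold higher in jazQ (log2 1.08 ± 0.078, adjusted p = 7.83e-06) and 1.75-fold lower in jazQ mycT than in jazQ (log2 −0.81 ± 0.077, adjusted p = 0.000127). It was 1.51-fold higher in jazQ mycT than in mycT (log2 0.60 ± 0.081, adjusted p = 0.000888). Relative to Col-0 the log2 fold change was −0.33 ± 0.082 in mycT (adjusted p = 0.0687) and 0.27 ± 0.079 in jazQ mycT (adjusted p = 0.0717).

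The relatives OPR1 and OPR2, which share 52.3% and 52.8% of aligned residues with OPR3 and act mainly on other substrates, did not pass the test in any of the 6 comparisons. OPR1 had more transcript per length than OPR3, at 332.5 ± 20.8 TPM in Col-0 and 312.9 ± 49.7 in jazQ (SD, n = 3), with a log2 fold change of −0.091 (95% confidence interval −0.39 to 0.20). For OPR2 it was 0.034 (−0.14 to 0.21).

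OPCL1 activates the product of OPR3 for beta-oxidation. It was not called in any comparison, and its libraries spread widely within each genotype. It stood at 13.02, 17.44 and 21.04 TPM in Col-0, 18.36, 24.35 and 16.99 in jazQ, 10.01, 15.33 and 22.96 in mycT, and 23.2, 18.4 and 15.37 in jazQ mycT. The 4 genotypes overlapped, and the interval of the jazQ change was wide (log2 0.21, 95% confidence interval −0.40 to 0.83). OPCL1 was then set beside transcripts known to rise when plants are touched or handled, in a relation that was noticed in these same libraries and is given as a description with no test. The summed TPM of 10 such markers (CAM2, TCH2, TCH3, TCH4, CML38, CML39, WRKY40, WRKY53, ZAT12 and ERF104) was 1245, 1585 and 2464 in Col-0, 1887, 2219 and 1703 in jazQ, 868.5, 1643 and 2352 in mycT, and 2380, 1962 and 1728 in jazQ mycT. In all 4 genotypes the 3 libraries had the same order for both.

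Over the 12 libraries, Pearson's r of OPCL1 with the marker sum was 0.96 and Spearman's rho was 0.888 on log2 TPM. Without the 2 libraries farthest from the median of the markers, Col-0 replicate 1 and mycT replicate 1, r was 0.886. Within genotypes r was 0.961. Of the single markers, 9 of 10 had a positive r within genotypes (median 0.928, highest TCH2 at 0.993), and CML39 had −0.27. For the other 9 genes r within genotypes lay between −0.348 (AOC1) and 0.501 (AOC4), and OPR3 had 0.0982. The pattern is not particular to OPCL1. Outside the 10, the lipoxygenase genes LOX3 and LOX4 also had the order of the marker sum in all 4 genotypes. LOX4 stood at 1.08, 4.11 and 16.33 TPM in Col-0 and at 24.44, 12.15 and 5.7 in jazQ mycT. Of the 10 markers, CAM2 and ERF104 were called in jazQ mycT relative to mycT, 1 higher and 1 lower, and none was called in the other 5 comparisons. The part of handling in the levels of OPCL1 was not tested.

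**Figure D3:**
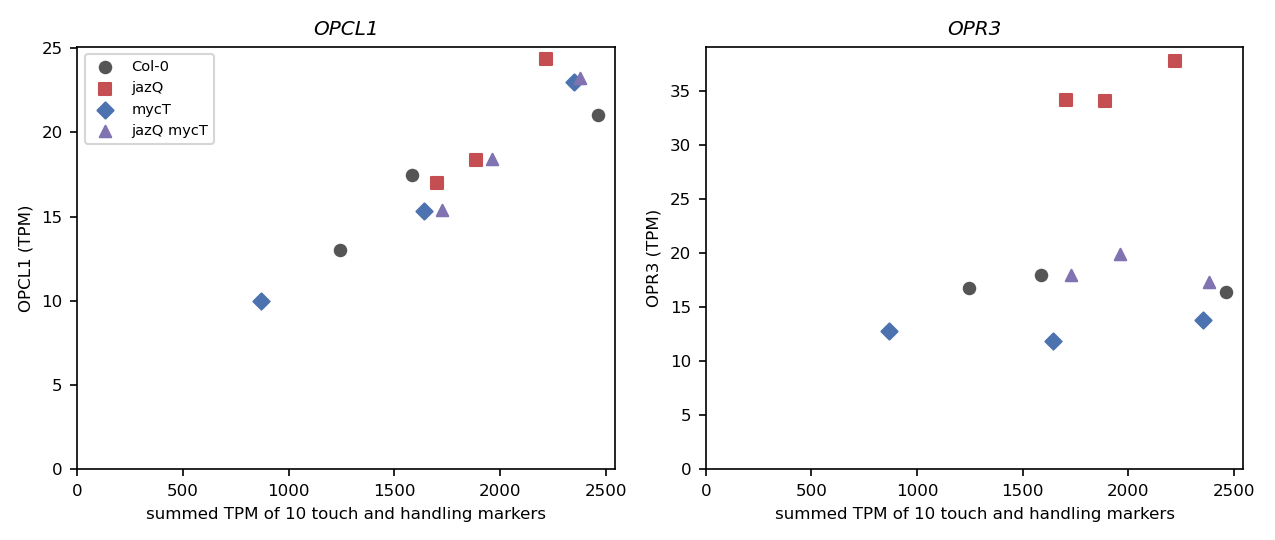
OPCL1 and OPR3 (vertical axes, TPM, from 0) against the summed TPM of 10 touch and handling markers (horizontal axis, from 0) in the 12 libraries, with genotypes by colour and shape. OPCL1 goes from 10.01 TPM at a marker sum of 868.5 to 23.2 at 2380 in a single band of all genotypes, whereas for OPR3 all jazQ libraries lie above and all mycT libraries below the rest, and Col-0 and jazQ mycT overlap.

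ACX1, the acyl-CoA oxidase with the larger part in jasmonate synthesis, stood at 74.88, 63.84 and 64.19 TPM in Col-0 and at 91.53, 85.23 and 80.26 in jazQ. It was at 62.28, 67.52 and 67.25 in mycT and at 61.2, 78.01 and 74.91 in jazQ mycT. The jazQ libraries lay above all others, and the other genotypes overlapped. The rise in jazQ was 1.26-fold (log2 0.34 ± 0.072, adjusted p = 0.0275). It was not called without jazQ replicate 1 or 2 or without Col-0 replicate 2 or 3 (highest adjusted p = 0.11), with the genotypes compared alone (0.0811) or with limma (0.13 to 0.176). ACX5 had 10.17 to 10.69 TPM in Col-0 and 11.11 to 12.34 in jazQ, with a log2 fold change of 0.14 (95% confidence interval 0.0025 to 0.29, adjusted p = 0.293). Neither gene was called in a comparison with mycT or jazQ mycT. The summed counts of both rose in jazQ (log2 0.32 ± 0.067, adjusted p = 0.026).

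JAR1, which makes the active hormone, was not called in any comparison by the edgeR test of all libraries. It stood at 37.81, 35.87 and 36.5 TPM in Col-0, 37.77, 37.57 and 35.15 in jazQ, 33.51, 38.21 and 35.23 in mycT, and 30.02, 30.72 and 30.16 in jazQ mycT. In TPM the first 3 genotypes overlapped, and all jazQ mycT libraries lay below them. Mean TPM in jazQ mycT was 0.825-fold that in Col-0, against 0.886-fold for the counts as normalized by edgeR. ACX1 differed between the scales in the same direction, at 1.06 and 1.13. Relative to mycT the scales were closer for JAR1, at 0.85 and 0.859. In jazQ the log2 fold change of JAR1 was −0.0065 (95% confidence interval −0.14 to 0.13). In jazQ mycT it was −0.17 relative to Col-0 (adjusted p = 0.134), −0.17 relative to jazQ (adjusted p = 0.217) and −0.22 relative to mycT (adjusted p = 0.0503). Without jazQ mycT replicate 1, the library with the most ribosomal RNA, the change was −0.24 relative to Col-0 (adjusted p = 0.0487) and −0.28 relative to mycT (adjusted p = 0.0203). With limma, which used TPM, JAR1 was also called lower relative to Col-0 (log2 −0.27 and −0.28, adjusted p from 0.0369 to 0.0449). Relative to mycT it was called with a replicate block (0.0453), with a minimum mean CPM of 1 (0.0487) and without jazQ replicate 3 (0.0437).

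Whether the rise in jazQ needs MYC2, MYC3 and MYC4 was asked with an interaction term, which takes the change caused by mycT where JAZ is mutated and subtracts the change where JAZ is intact. None of the 10 genes passed it, against 0.579% of all tested genes, of which the edgeR test called 121. At an unadjusted p under 0.05 there were 3 genes with edgeR (OPR3, JAR1 and AOC1) and 2 with DESeq2 (OPR3 and AOC1), where none passed after adjustment either. The share of all tested genes under that unadjusted threshold was not computed, so these counts are a description only. The estimate was negative for 9 of 10 genes, with a median of −0.20, and the median of all tested genes was −0.0008. For OPR3 it was −0.48 (95% confidence interval −0.72 to −0.23, adjusted p = 0.111), and the range of adjusted p over libraries left out was 0.0726 to 0.257. For AOC1 it was −0.37 (−0.72 to −0.03, adjusted p = 0.394), for AOS −0.31 (−0.89 to 0.26), for AOC2 −0.14 (−0.54 to 0.26) and for AOC4 −0.058 (−0.27 to 0.16). A difference between the JAZ effects with and without MYC was thus not shown for any of the 10 genes.

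**Figure D4:**
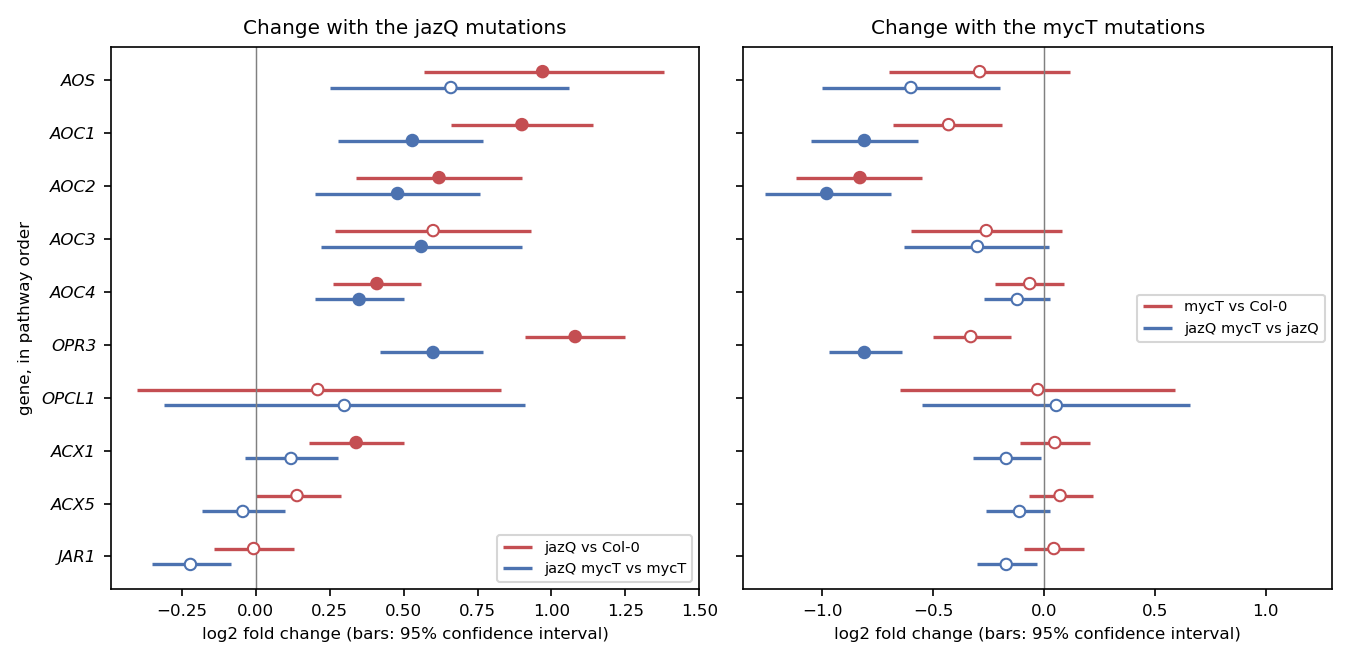
Log2 fold change (horizontal axes) of each gene with the jazQ mutations on the left (red where MYC is intact, blue where it is mutated) and with the mycT mutations on the right (red where JAZ is intact, blue where it is mutated). Bars are 95% confidence intervals, and filled points passed the edgeR adjusted threshold. The log2 rise of OPR3 was 1.08 with MYC intact and 0.60 in mycT, and that of AOC4 was 0.41 and 0.35.

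Outside these 10 genes, the listed pathway genes called in jazQ were 2 lipoxygenases and 1 ligase relative. Of 31 other genes listed for the pathway, 28 were tested, and 3 were called higher and none lower in jazQ. Of all tested genes, 1.75% were called higher there and 232 of 20888 lower. The 3 genes were LOX2, the main chloroplast lipoxygenase of leaves, LOX6, another lipoxygenase, and AT1G20490. LOX2 stood at 38.09, 56.46 and 40.6 TPM in Col-0, 148.07, 179.94 and 91.05 in jazQ, 25.34, 33.91 and 29.63 in mycT, and 67.46, 80.51 and 76.68 in jazQ mycT. It did not overlap between any genotypes, in the order jazQ, jazQ mycT, Col-0, mycT. LOX2 was 3.11-fold higher in jazQ (adjusted p = 0.000918) and 2.54-fold higher in jazQ mycT than in mycT (adjusted p = 0.00223), with an interaction of −0.29 (95% confidence interval −0.92 to 0.34). In jazQ mycT it was 1.78-fold the Col-0 level (adjusted p = 0.0341), and its log2 fold change relative to jazQ was −0.80 ± 0.20 (adjusted p = 0.0681), which did not pass the test. LOX6 was 1.36-fold higher in jazQ (adjusted p = 0.0209), which was not called when jazQ replicate 1 or 2 or Col-0 replicate 1 was omitted (highest adjusted p = 0.0993) or with limma (0.0901 to 0.148).

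AT1G20490, annotated as related to 4-coumarate:CoA ligases, is separated from OPCL1 on chromosome 1 by AT1G20500, a listed gene with too few counts to be tested, and its protein shares 65.4% of aligned residues with it. It rose from 3.497 ± 0.312 TPM in Col-0 to 6.587 ± 0.26 in jazQ (1.87-fold, adjusted p = 0.000641) and to 5.223 ± 0.805 in jazQ mycT (1.58-fold over Col-0, adjusted p = 0.00352, or 0.0511 with limma on log2(TPM + 1) without a filter). None of 9 other genes of beta-oxidation and neither transport gene was called in any of the 6 comparisons. Few of all tested genes were called either, such as 1.75% higher in jazQ and 4.05% higher in jazQ mycT relative to mycT. In jazQ mycT relative to jazQ, FAD8, a desaturase of linolenic acid synthesis, was 1.21-fold higher (adjusted p = 0.0495). The call was made in 1 of the 12 fits with a library left out. It was not made with a replicate block (adjusted p = 0.0751), with the genotypes alone (0.117) or with limma (0.366 to 0.404). No listed gene was called lower in that comparison, against 0.876% of all tested genes, and 278 of 20888 were called higher. Outside the rule for named genes and chosen after its values were seen, ORA47, a known activator of jasmonate synthesis genes, had its highest mean in Col-0. It was at 7.377 ± 3.96 TPM in Col-0, 4.657 ± 1.43 in mycT, 2.68 ± 1.55 in jazQ and 1.433 ± 0.481 in jazQ mycT, and only the last was called lower than Col-0 (adjusted p = 0.0157, up to 0.0762 with a library left out). Among the 28 tested genes, GH3.10 was also called lower in jazQ mycT than in Col-0 (adjusted p = 0.0271). There, 3 were called higher (FAD7, LOX2 and AT1G20490). Of all 20888 genes, 559 were called lower and 586 higher.

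The 6 genes from AOS to OPR3 varied together over the 12 libraries. OPR3 had a median Pearson r of 0.869 with the other 9 on log2 CPM, and the pair AOC1 and OPR3 had r = 0.945. The lowest r within the 6 was 0.702 (AOC2 and AOC4). ACX1 was not sharply set apart from them, with r from 0.553 (AOC2) to 0.793 (OPR3). OPCL1 had a median r of 0.249 and JAR1 of −0.0986. These are descriptions over libraries that share genotype, depth and normalization. Outside the 10, the genes nearest to their mean pattern were AT1G14250, a nucleoside phosphatase family gene (r = 0.977), AT3G51450 (0.959), SULTR4;1, a sulfate transporter (0.958), AT3G28220 (0.956) and PGIP2, a polygalacturonase inhibitor (0.956). AT1G14250 rose from 3.643 ± 0.569 TPM in Col-0 to 24.96 ± 9.97 in jazQ and stood at 2.323 ± 0.612 in mycT and 6.083 ± 0.826 in jazQ mycT.

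**Figure D5:**
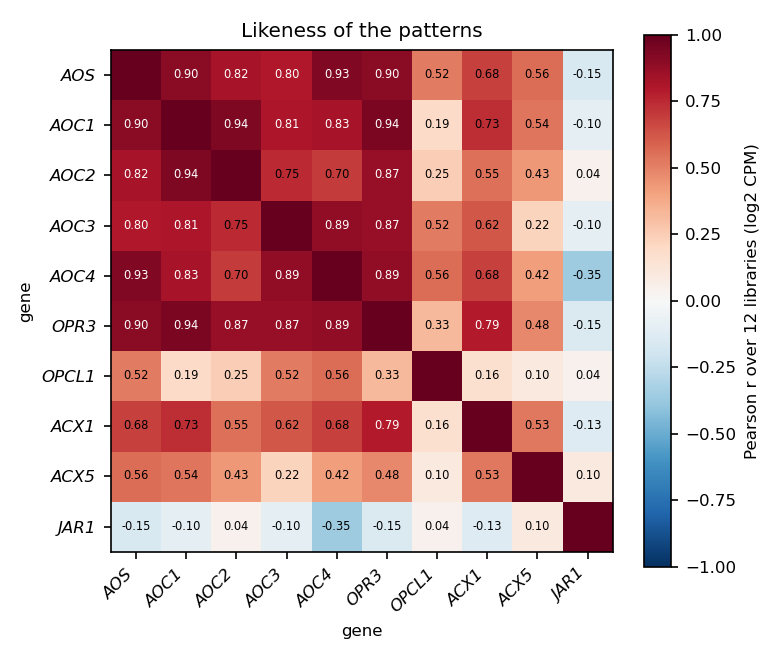
Pearson r of log2 CPM over the 12 libraries for each pair of the 10 genes (both axes, in pathway order), with red for positive and blue for negative values. The block from AOS to OPR3 is red throughout, and JAR1 has values from −0.353 to 0.0976 with the others.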

How the data were processed

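RNA of whole seedlings was sequenced (Illumina, single-end, 50 bases). The authors mapped filtered reads to the TAIR10 gene models and quantified them with RSEM (version 1.2.11). Its expected counts, as deposited, hold whole numbers and are not normalized. The TPM values deposited beside them are scaled by gene length and library total by the same program. Strand and aligner are not given in the sources used here.

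The expected counts were tested by quasi-likelihood F tests of edgeR (version 4.0.16, in R version 4.3.3) with TMM normalization, the filter of filterByExpr and a term for genotype over 12 libraries. Adjusted p-values are Benjamini-Hochberg over 20888 genes. Each SE is the fold change divided by the root of F. The script was tested on simulated data. Named genes were the 10 members, the mutated genes, the 5 genes most like the members, and listed pathway genes called in jazQ or in jazQ mycT relative to jazQ, with OPR1, OPR2 and LOX2. Members and lists were chosen with earlier results of these data known. P-values rest on the spread among 3 pools per genotype, estimated from all 12 libraries and moderated over all tested genes. The main fit had no term for the replicate number.

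Libraries of Col-0 and mycT with the same replicate number deviated together (r = 0.251, 0.134 and 0.307), so these numbers were taken as pairs in the fit with a replicate block. Every other pair of genotypes had a negative r for some replicate number. The block was nevertheless shared by all 4 genotypes, so jazQ and jazQ mycT libraries also informed it. The main p-values for mycT relative to Col-0 do not take the pairing into account. Alternatives used DESeq2 v1.42.0, limma v3.58.1 on log2(TPM + 1) and log2(TPM + 0.1), other filters and scalings, the genotypes compared alone, and each library left out. Promoter windows, shared 50-base stretches and protein identity (Biopython v1.88) were computed from RefSeq TAIR10.1, whereas counts rest on TAIR10.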

Additional observations from a re-analysis of the deposited data

How the results depend on the processing

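The count of members called lower in jazQ mycT than in jazQ stayed at 3 or 4, and no member passed the interaction, in all alternatives. With limma on log2(TPM + 1) without a filter, 3 members were called in jazQ relative to Col-0 and 2 in jazQ mycT relative to mycT. For mycT relative to Col-0, 2 members (AOC1 and AOC2) were called with DESeq2 and 2 with the replicate block. That block was shared by all 4 genotypes and not fitted to this pair alone. Among other comparisons the block added JAR1 (lower) and AOS and lost AOC3 in jazQ mycT relative to mycT. It ended the call of FAD8 in jazQ mycT relative to jazQ, and changed no other call that was followed through the alternatives. These were the calls of the members and of a few named genes. Calls of other genes, such as FAD7 and GH3.10, were not followed. With the compared genotypes alone, 0 members were called in jazQ mycT relative to Col-0, and in the 3 limma fits the single call was JAR1, lower, in place of AOC4, higher. With libraries left out, 3 to 7 members were called in jazQ and 1 to 2 in mycT, each relative to Col-0. In jazQ mycT the counts were 0 to 2 relative to Col-0 and 3 to 6 relative to mycT. Those of jazQ mycT relative to Col-0 include genes called lower, AOC2 without Col-0 replicate 3 and JAR1 without jazQ mycT replicate 1. Relative to mycT they include JAR1, lower, without jazQ replicate 3 or jazQ mycT replicate 1. The share of all tested genes called was computed for the main fit only, so the counts from the alternatives are a description.

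Directions reversed only for values near 0, none of them called. On log2(TPM + 1) and log2(TPM + 0.1), JAR1 in jazQ became 0.0035 and 0.0036, and in mycT −0.043 and −0.045. In mycT, ACX1 became −0.039 in both, and ACX5 −0.017 and −0.018. In jazQ mycT, ACX5 became −0.063 and −0.069 relative to Col-0, and OPCL1 −0.067 and −0.07 relative to jazQ. With libraries left out, JAR1 in jazQ ranged from −0.03 to 0.033, OPCL1 in mycT from −0.35 to 0.21, and AOC1 and ACX5 in jazQ mycT relative to Col-0 from −0.0048 to 0.17 and from −0.016 to 0.067. OPCL1 in jazQ mycT relative to jazQ ranged from −0.21 to 0.23, and the interactions of AOC3 and OPCL1 from −0.3 to 0.084 and from −0.18 to 0.41. In jazQ, OPR1 ranged from −0.19 to 0.036 and OPR2 from −0.031 to 0.09. The cause was not tested. The spread of OPCL1 limits what 3 libraries per genotype can show for it.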
